A study of Mus musculus with 7 samples.

Results

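The genes described here are 10 transcription factor genes of the megakaryocyte and erythroid lineages, taken by symbol from the 32285 genes of the feature tables: Gata1, Gata2, Klf1, Zfpm1, Nfe2, Fli1, Tal1, Lyl1, Gfi1b and Runx1. All 10 were measured in every library. Their values are UMI counts (unique molecular identifiers, each standing for 1 captured RNA molecule) in single cells of mouse bone marrow. The cells were LSK cells, the lineage-negative, Sca-1-positive, c-Kit-positive fraction that holds stem cells and early progenitors, sorted from tibia and femur marrow after red cell lysis. The study compared 3 libraries labelled knockout for B4galt1, a galactosyltransferase that builds N-glycan chains (genotype 129S1/C57Bl/6, B4-/-), with 4 libraries labelled wild type (129S1/C57Bl/6). Both groups share the mixed 129S1/C57Bl/6 background, the series describes the knockout as a full one, and the age of the mice was not given in the sources used here. Nothing in the labels says how many mice stand behind a library, so the spread between libraries, on which every p-value rests, may be technical.

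GATA factors are zinc-finger proteins that bind short DNA words around the letters GATA. Gata2 is the GATA factor of stem and early progenitor cells, and Gata1 is one of the erythroid, megakaryocyte and mast lineages. In the erythroid lineage Gata1 takes the place of Gata2, a handover known as the GATA switch. Zfpm1 (FOG1) is the cofactor that docks on GATA1, while TAL1 joins GATA factors in a complex with LMO2, LDB1 and E proteins, and Klf1 and Fli1 are known as opposed factors of the erythroid and megakaryocyte branches.

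The 7 libraries fell into 2 lists by the opening 7 bases of their cell barcodes, although the labels name the same kit for all. List A held knockout-labelled libraries 1 and 2 and wild-type-labelled libraries 1 to 3, and list B held knockout-labelled library 3 and wild-type-labelled library 4. After filters on UMIs, genes and mitochondrial share, 24430 cells remained, from 1172 to 8862 per library, with a median of 8046 to 11083.5 UMIs per cell and totals of 14970791 to 89747946 UMIs per library before filtering. The UMI share of ribosomal protein genes was 13.7% to 20.8% among the list A libraries, against 30.0% and 30.2% for the other two. The largest number of barcodes shared by any of the 21 pairs of libraries was 68, between the 2 libraries of list B, and no other pair shared more than 2. B4galt1 itself, counted over all kept cells, stood at 51.2, 55.6 and 27.4 CPM (UMIs of the gene per 1000000 UMIs of the cells summed) in knockout-labelled libraries 1 to 3 and at 56.4, 69.2, 56.7 and 34.8 in wild-type-labelled libraries 1 to 4. The sources used here do not say which part of the gene was deleted, and a 3′ tag outside the deleted part checks nothing, so the groups below are named by their labels. The sort genes Kit and Ly6a (which encodes Sca-1) were both detected in every library. The barcode list was a term of every comparison of the labels.

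Cells were placed in states by marker gates that contain none of the 10 factors. The markers include genes that these factors may drive, with 8 of 12 megakaryocyte and 5 of 15 erythroid GATA target genes followed below. A factor that is higher in such a gate may in part reflect how the cells were chosen, which was not tested. A cell entered the megakaryocyte gate with UMIs of at least 2 of 10 markers such as Pf4, Itga2b and Gp9, the erythroid gate with at least 2 of 8 such as Car1, Epor and Ermap, and the basophil-mast gate with at least 2 of 8 such as Cpa3 and Ms4a2. The myeloid gate joined granulocyte-monocyte and monocyte-dendritic markers, the lymphoid gate used 6 markers such as Dntt and Flt3, and the stem gate, at least 3 of 7 markers such as Procr, Hlf and Mecom, took only cells that passed no lineage gate. A gate is a range of marker detection and not a sorted type: cells of the megakaryocyte gate carried a median of 3 or 4 stem markers beside 2 megakaryocyte markers in every library. The stem gate held 489 to 2882 cells per library. The megakaryocyte gate held 86, 11 and 874 cells in knockout-labelled libraries 1 to 3 and 26, 19, 61 and 715 in wild-type-labelled libraries 1 to 4. The erythroid gate reached 20 cells only in list B, with 35 cells in knockout-labelled library 3 and 110 in wild-type-labelled library 4, as did the basophil-mast gate with 62 and 40.

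Promoters are shown first for the 3 factors whose promoter held a GATA word. All 3 stood among the genes called higher in the erythroid gate below, Tal1 not in every setting. Promoter sequences came from RefSeq (GRCm38.p6), as the 250 bases of which the last one precedes the transcription start, and existed in the table for 8 of the 10 factors, as 11 promoters; Nfe2 and Fli1 had none. Capitals mark a GATA word, which is AGATAA or AGATAG or either of them with T in place of the first A, on the strand shown or the other one. Klf1 encodes an activator of globin and other red cell genes (chr8:84901732-84901981, plus strand). Gfi1b encodes a repressor needed for red cells and platelets (chr2:28621983-28622232, minus strand), and Tal1 a bHLH factor of blood formation (chr4:115056176-115056425, plus strand; the first of its 2 promoters).
Klf1 promoter: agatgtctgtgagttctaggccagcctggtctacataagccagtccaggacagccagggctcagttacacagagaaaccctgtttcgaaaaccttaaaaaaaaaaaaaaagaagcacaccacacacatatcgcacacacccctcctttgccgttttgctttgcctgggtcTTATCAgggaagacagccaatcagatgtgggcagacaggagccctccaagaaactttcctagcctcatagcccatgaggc
Gfi1b promoter: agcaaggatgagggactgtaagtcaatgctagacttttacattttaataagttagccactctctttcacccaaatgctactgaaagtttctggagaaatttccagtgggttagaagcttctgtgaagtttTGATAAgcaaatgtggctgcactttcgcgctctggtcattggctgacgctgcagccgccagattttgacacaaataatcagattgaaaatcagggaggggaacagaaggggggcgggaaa
Tal1 promoter: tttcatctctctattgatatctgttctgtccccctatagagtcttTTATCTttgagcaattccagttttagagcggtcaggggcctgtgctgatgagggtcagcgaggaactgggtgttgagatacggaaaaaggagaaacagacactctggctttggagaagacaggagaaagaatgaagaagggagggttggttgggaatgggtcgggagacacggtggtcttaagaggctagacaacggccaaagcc
The Klf1 word read TTATCA and began 80 bases upstream of the start, the Gfi1b word read TGATAA at 120 bases, and the Tal1 word read TTATCT at 205 bases. Of the 11 promoters 3 held at least 1 of the words, a share close to the 26.5% of 32851 RefSeq windows of the same 250 bases. The promoters of Gata1, Gata2, Zfpm1, Lyl1 and Runx1, and the second one of Tal1, held none of these words, although Gata1 and Zfpm1 were also called higher in the erythroid gate. The CACCC word CCACCC, searched on both strands, was in the promoters of Gata1, Zfpm1 and Lyl1 and in 28.1% of all windows. These matches describe letters only, and no binding was measured.

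Of the pair of GATA factors, Gata1 lies on chrX:7959260-7978071 (GRCm38, minus strand). Over all LSK cells it stood at 1.90, 1.33 and 13.1 CPM in knockout-labelled libraries 1 to 3, and at 1.78, 2.29, 1.5 and 9.63 in wild-type-labelled libraries 1 to 4. Both list B libraries were high and the list A libraries of both labels overlapped. Gata2 (chr6:88193891-88207032, plus strand) stood at 36.4, 38.9 and 91.1 in the knockout-labelled and at 46.1, 45.5, 57.9 and 66.2 CPM in the wild-type-labelled libraries. The highest and the lowest of these 7 values were both from libraries labelled knockout. In a sum over cells, fewer cells of a type and less RNA per cell cannot be told apart.

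**Figure D1:**
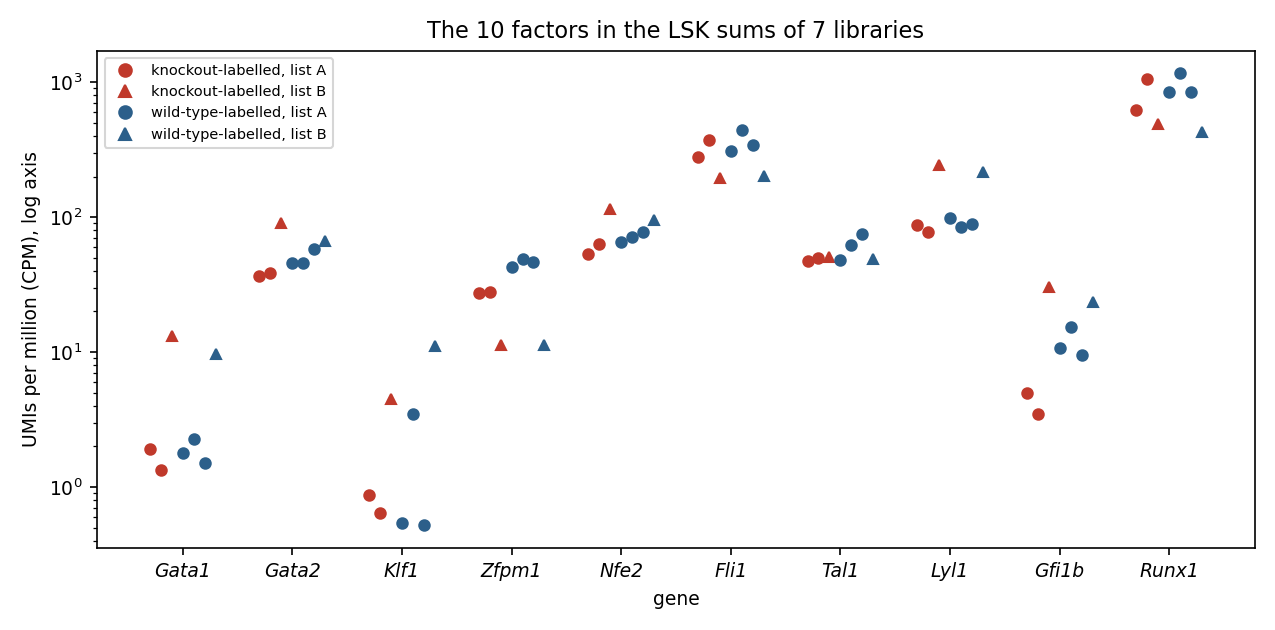
CPM over all kept LSK cells (vertical log axis) for each of the 10 factors, with 1 point per library; colour gives the label and shape the barcode list. Gata1 lies between 1.33 and 2.29 in the 5 list A libraries and at 9.63 and 13.1 in the 2 list B libraries, and for no factor do the labels separate.

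None of the 10 factors was called by label over all LSK cells. With edgeR's quasi-likelihood test, the barcode list as covariate and Benjamini-Hochberg adjustment over 15149 genes, 162 genes (1.07% of those tested) were called at an adjusted p below 0.05, 70 higher and 92 lower in the libraries labelled knockout. At an unadjusted p below 0.05 the test gave 2861 genes, of which Zfpm1 was the single member. For Gata1 the difference, knockout-labelled minus wild-type-labelled, was 0.18 on the log2 scale (SE 0.24, adjusted p = 0.721), and for Gata2 it was -0.05 (SE 0.17, adjusted p = 0.906). The smallest adjusted p of a member was that of Zfpm1, whose difference was -0.42 (SE 0.14, adjusted p = 0.166). The 2 label groups overlapped for all 10 factors, against 5.8% of tested genes whose groups did not overlap. A p that misses the threshold does not show that the levels were the same.

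Among the cofactors and repressors, Zfpm1 stood at 27.4, 28.1 and 11.3 CPM in knockout-labelled libraries 1 to 3, and at 42.5, 49.2, 46.5 and 11.4 in wild-type-labelled libraries 1 to 4. Within list A both knockout-labelled libraries were under all 3 wild-type-labelled ones, and within list B the 2 labels were close. Gfi1b stood at 4.94, 3.48 and 30.5 in the knockout-labelled and at 10.7, 15.3, 9.48 and 23.4 in the wild-type-labelled libraries. Its order in list A was that of Zfpm1, but in list B the library labelled knockout was the higher one. Over all 7 libraries the Gfi1b difference was -0.74 (SE 0.37, adjusted p = 0.320 with edgeR). It was -1.35 with list A alone (adjusted p = 0.037), -1.33 without knockout-labelled library 3 (adjusted p = 0.0335) and -1.33 without wild-type-labelled library 4 (adjusted p = 0.0315). Gfi1b was called in each of these 3 fits, in which list B has at most 1 library. In the order given, they called 362 of 14845, 363 of 15838 and 354 of 15769 genes, against 162 of 15149 over all 7 libraries. The list term takes up a lone list B library, so all 3 fits compare the labels within list A and count as 1 result. The label difference in list B minus that in list A was 1.74 for Gfi1b (SE 0.42, adjusted p = 0.825), and this interaction called 4 of 15876 genes (0.0252%) and no member. The share of cells in the myeloid gate was higher in the knockout-labelled libraries of each list. In list A it was 39.3% and 34.0% in the knockout-labelled and 9.08%, 4.86% and 4.07% in the wild-type-labelled libraries. In list B it was 8.58% in knockout-labelled library 3 and 3.41% in wild-type-labelled library 4. The part of this share in the Zfpm1 and Gfi1b values was not tested.

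Klf1 was scarce and uneven. Its LSK levels were 0.876, 0.637 and 4.53 CPM in knockout-labelled libraries 1 to 3, and 0.541, 3.47, 0.520 and 11.1 in wild-type-labelled libraries 1 to 4. The highest value came from wild-type-labelled library 4, and the groups overlapped. The difference was -0.95 (SE 0.57, adjusted p = 0.392 with edgeR), and its direction was not stable: it was 0.36 without the cells above the 95th percentile of UMIs of their library and 0.70 with the replicate number as a block, neither called. The same 3 libraries were highest in the summed erythroid gate markers, at 194 CPM in wild-type-labelled library 4, 61.0 in wild-type-labelled library 2 and 43.0 in knockout-labelled library 3, against 4.97 to 13.2 in the other 4.

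The remaining factors are expressed across the LSK pool. Nfe2 (the p45 subunit of the platelet factor NF-E2) ranged from 53.7 to 114 CPM, Fli1 (an ETS factor of megakaryocytes) from 194 to 445, Tal1 from 47.2 to 75.6, Lyl1 (a relative of Tal1) from 78.1 to 244, and Runx1 (the factor that partners CBFB) from 427 to 1164. The labels overlapped for each of these. Lyl1 is overlapped on the other strand by Nfix, Fli1 by Gm27201 and Runx1 by Gm26626, and the strand setting of the counting is not given in the sources used here, so part of their counts could belong to those genes.

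The barcode list separated most of the factors. In the same edgeR fit, list B against list A called 9309 of 15149 genes (61.4%) and 9 of the 10 factors, and the 2 lists did not overlap for 9 factors, against 63.7% of genes. Of the called factors 6 were higher in list B (30.8% of genes were), namely Klf1 by 3.02 log2 units, Gata1 by 2.94, Gfi1b by 2.20, Lyl1 by 1.66, Gata2 by 1.10 and Nfe2 by 0.95. In the other direction (30.7% of genes), Zfpm1 gave -1.40, Runx1 -0.69 and Fli1 -0.53, and Tal1, at 0.11 (adjusted p = 0.583), was not called. Within the stem gate the difference was 0.95 for Gata1 (SE 0.52, adjusted p = 0.121) and stayed past the threshold at 1.93 for Lyl1, 1.67 for Gfi1b and -1.93 for Zfpm1. In that gate the list called 67% of 12976 genes. Kit chemistry, cell recovery and any difference between the mice of the 2 lists cannot be told apart, so levels were compared within a list or with the list as a term.

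Gata1 rose most steeply in the erythroid gate. Knockout-labelled library 3 gave 4.92 CPM in the stem gate, 36.8 in the megakaryocyte gate and 121 in the erythroid gate, and wild-type-labelled library 4 gave 1.64, 21 and 135. The basophil-mast gate gave 51.9 in the first and 5.24 in the second, while the lymphoid gate gave 1.02 and 1.00. In both libraries the erythroid gate was the highest and the lymphoid gate the lowest of these, and the basophil-mast gate changed its place between them. The Gata1 values of the basophil-mast gate rest on 37 UMIs in knockout-labelled library 3 and on 2 in wild-type-labelled library 4. Klf1 was still more restricted, at 188 and 263 CPM in the erythroid gate, 8.63 and 5.19 in the megakaryocyte gate and 1.10 and 1.05 in the stem gate. Gfi1b gave 106 and 109 in the erythroid gate, 53.9 and 35.9 in the megakaryocyte gate and 34.5 and 22.2 in the stem gate. For these 3 factors the order erythroid, megakaryocyte, stem was the same in both libraries.

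Erythroid gate cells had 5 factors higher and 4 lower than stem gate cells. The edgeR test over the gate sums of the 2 list B libraries, with library as a block, called 6848 of 13535 genes (50.6%; 23.6% higher and 27% lower), so a call is common in this contrast. Klf1 was higher by 7.98 log2 units (SE 0.26), Gata1 by 5.76 (SE 0.44), Gfi1b by 2.28 (SE 0.17), Zfpm1 by 1.16 (SE 0.21) and Tal1 by 0.57 (SE 0.13). Fli1 gave -1.40 (SE 0.18), Lyl1 -1.20 (SE 0.13), Runx1 -0.72 (SE 0.12) and Nfe2 -0.67 (SE 0.14). Gata2, at -0.15 (adjusted p = 0.672), was not called: it stood at 178 CPM in the erythroid gate of knockout-labelled library 3 and at 48.4 in that of wild-type-labelled library 4, against 124 and 89.5 in their stem gates. The erythroid gate cells of these libraries also differed in depth, with a median of 8755 UMIs in the first and 20394.5 in the second, and the summed hemoglobin genes stood at 28.6 and 1020 CPM. These cells carried a median of 2 erythroid, 2 stem and 1 megakaryocyte markers in the first library, and of 5, 1 and 0 in the second. Without the cells above the 95th percentile of UMIs of their library, which left 29 and 58 erythroid gate cells, 1385 genes were called. Klf1 (6.92), Gata1 (5.12), Gfi1b (1.32) and Lyl1 (-1.09) kept their calls, Gata2 was called higher at 0.73 (adjusted p = 0.0184; with gates set on thinned cells it was called lower, at -0.66), and Fli1 (-0.25), Nfe2 (-0.01), Runx1 (-0.24), Tal1 (0.36) and Zfpm1 (0.52) were not called.

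The other factors had flatter profiles over the gates of list B. Fli1 stood at 280 and 267 CPM in the megakaryocyte gate of knockout-labelled library 3 and wild-type-labelled library 4, at 210 and 226 in the stem gate and at 125 and 55.4 in the erythroid gate, the same order in both. Lyl1 was highest in the stem gate, at 291 and 240, with 250 and 214 in the lymphoid gate, 236 and 216 in the megakaryocyte gate and 123 and 88.4 in the erythroid gate. Runx1 stood at 531 and 451 in the megakaryocyte gate, 454 and 414 in the stem gate and 288 and 198 in the erythroid gate, and was highest in the basophil-mast gate at 620 and 600. These 3 factors had the erythroid gate as the lowest of the named gates in each library. Nfe2 stood at 146 and 125 in the megakaryocyte gate and at 148 and 121 in the stem gate, with no call between these, and at 104 and 59.2 in the erythroid gate. Zfpm1 stood at 28.6 and 25.0 in the erythroid gate and at 24.0 and 22.0 in the megakaryocyte gate. It was lower in the stem gate, at 13.3 and 13.3, and in the myeloid gate, at 3.90 and 5.38. Tal1 stood at 106 and 75.4 in the erythroid gate, 78.1 and 71.3 in the megakaryocyte gate and 66.2 and 64.2 in the stem gate. In the myeloid gate Tal1 stood at 28.3 and 28.0.

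**Figure D2:**
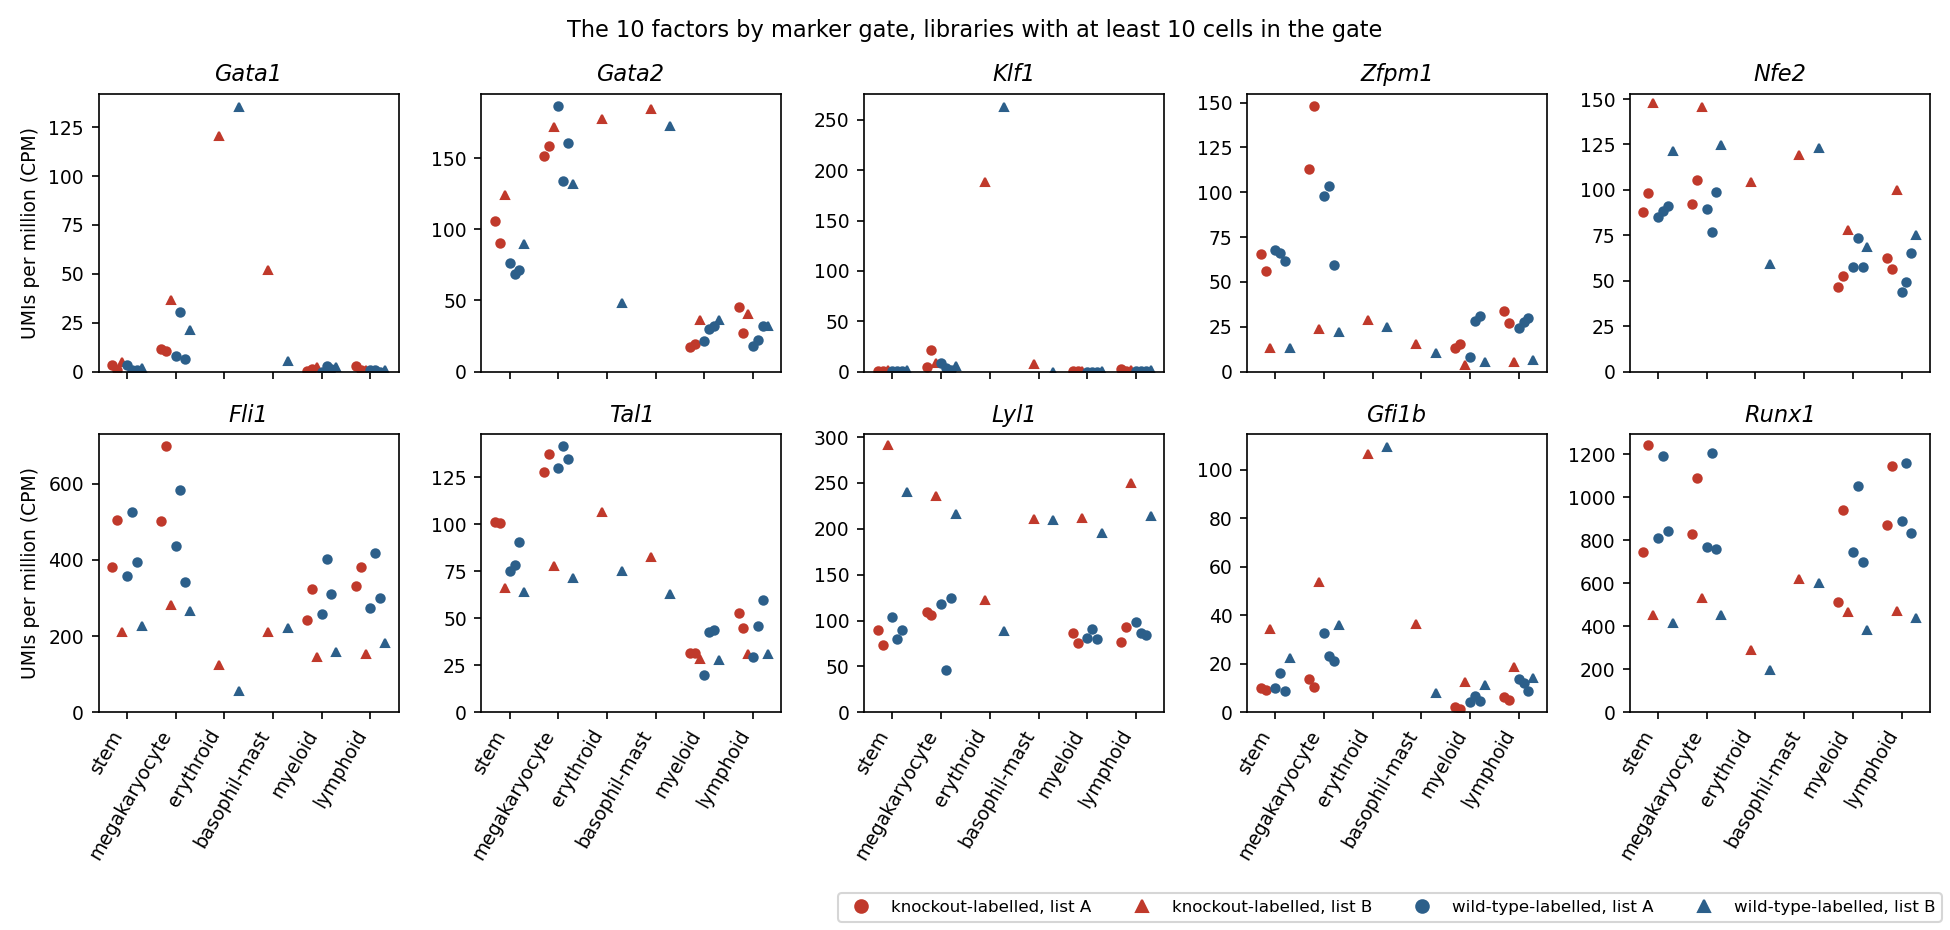
CPM (vertical axis, linear) in each marker gate (horizontal axis) for the 10 factors, 1 point per library with at least 10 cells in the gate; colour gives the label and shape the barcode list. Gata1 and Klf1 peak in the erythroid gate, at 121 and 135 and at 188 and 263, while Gata2 is low in the myeloid gate of all 7 libraries, at 17.4 to 36.4.

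Shares of cells with a UMI were taken at equal depth. Cells were thinned to 3000 UMIs, and cells with fewer were left out. Gata1 was then seen in 28.6% of erythroid gate cells of knockout-labelled library 3 (10 of 35, exact 95% interval 14.6% to 46.3%). In wild-type-labelled library 4 it was seen in 29.0% of them (31 of 107, 20.6% to 38.5%). In the megakaryocyte gate the shares were 7.23% (5.60% to 9.16%) and 5.48% (3.92% to 7.41%). In lymphoid gate cells, which should lack Gata1, they were 0.0948% (1 of 1055 cells; up to 0.527%) and 0.179% (4 of 2239; 0.0487% to 0.457%), at median depths before thinning of 9822.5 and 8742 UMIs. The erythroid and megakaryocyte shares stood well above this background in both libraries. Klf1 was seen in 31.4% and 49.5% of erythroid gate cells, in 1.61% and 1.26% of megakaryocyte gate cells and in 0.379% and 0.357% of lymphoid gate cells. Unthinned, the Gata1 shares were 60% and 72.7% in the erythroid gate and 0.942% and 0.927% in the lymphoid gate. The intervals cover counting error only.

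Of the 536 Gata1-positive cells of knockout-labelled library 3, counted unthinned, 38.6% lay in the megakaryocyte gate, which held 12.7% of its cells, and 3.92% in the erythroid gate (0.511% of its cells). Of the 379 in wild-type-labelled library 4, 26.4% lay in the megakaryocyte gate (8.07% of its cells) and 21.1% in the erythroid gate (1.24% of its cells). A further 31.2% and 28.8% passed more than 1 lineage gate, a group that can hold doublets and for which no doublet caller was run.

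Against the megakaryocyte gate, erythroid gate cells of list B had Klf1 higher by 5.25 log2 units, Gata1 by 2.55, Gfi1b by 1.6 and Tal1 by 0.37, and 4 factors lower, namely Fli1 (-1.74), Lyl1 (-0.97), Runx1 (-0.90) and Nfe2 (-0.68). The test called 5446 of 13535 genes (40.2%; 19.5% higher and 20.8% lower). Gata2 (-0.67, adjusted p = 0.074) and Zfpm1 (0.36, adjusted p = 0.170) were not called. Klf1 and Fli1 moved apart most: their UMIs numbered 92 and 61 in the erythroid gate of knockout-labelled library 3 and 631 and 133 in that of wild-type-labelled library 4, against 86 and 2795 and 40 and 2056 in the megakaryocyte gates. Without the cells of highest UMIs 424 genes were called, and Gfi1b (0.66), Nfe2 (-0.04) and Tal1 (0.18) were no longer among them. Tal1 also lost its call with 1 more marker per gate (0.35) and with gates on thinned cells (0.10), and Gata2 was called lower under these 2 settings (-1.07 and -1.29).

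In the megakaryocyte gate, Gata1 stood at 11.5, 10.6 and 36.8 CPM in knockout-labelled libraries 1 to 3, and at 8.14, 30.7, 6.61 and 21 in wild-type-labelled libraries 1 to 4. In the stem gate of the same libraries it stood at 3.42, 0.989 and 4.92, and at 3.19, 0.628, 0.714 and 1.64. It was higher in the megakaryocyte gate in 7 of 7 libraries, although the list A values of the megakaryocyte gate rest on 1 to 10 UMIs each. The edgeR test with library as a block called 1019 of 13664 genes (7.46%; 440 higher, 3.22%), and 6 of the 10 factors, all higher. Gata1 was higher by 3.08 (SE 0.33, adjusted p = 6.0e-07) and Klf1 by 2.76 (SE 0.32, adjusted p = 9.6e-08), the latter from 1 to 4 UMIs per gate and library in list A and from 86 against 19 and 40 against 25 UMIs in list B. The other 4 were Gfi1b by 0.75 (SE 0.16), Gata2 by 0.68 (SE 0.15), Zfpm1 by 0.64 (SE 0.14) and Tal1 by 0.35 (SE 0.10). Fli1 (0.22, adjusted p = 0.063), Nfe2 (0.01), Lyl1 (0.01) and Runx1 (-0.01) were not called.

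Gata2 in the megakaryocyte gate stood at 152, 158 and 172 CPM in the knockout-labelled and at 187, 134, 161 and 132 in the wild-type-labelled libraries, above its stem gate level in each of the 7. Knockout-labelled library 3 holds 874 of the gate's cells. Without it 169 genes were called, Gata1 and Klf1 among them. Gata2 (0.76, adjusted p = 0.0507), Gfi1b (0.78, 0.0617), Tal1 (0.39, 0.0863) and Zfpm1 (0.58, 0.0948) were then not called, at differences close to those with all libraries. The adjusted p of Tal1 also passed 0.05 without wild-type-labelled library 2 or 3, and without the cells of highest UMIs. Fli1 was called at 0.32 without wild-type-labelled library 3. The summed hemoglobin genes reached 1034 CPM in the megakaryocyte gate of wild-type-labelled library 4, against 54.8 in that of knockout-labelled library 3, and their part in the result was not tested.

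**Figure D3:**
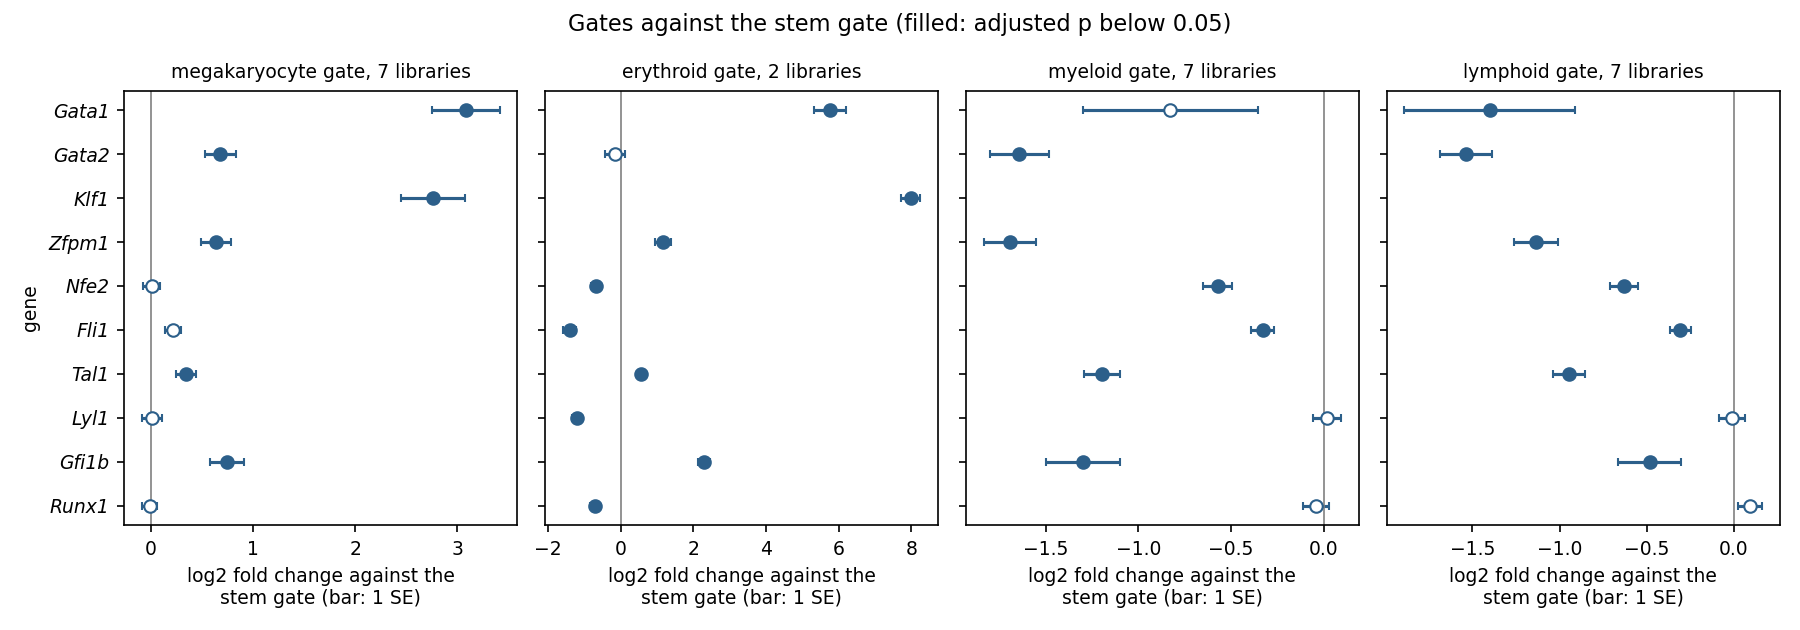
Fitted log2 differences with standard errors (horizontal axis) of the 10 factors between gates, each gate against the stem gate, with filled points for adjusted p below 0.05. Klf1 and Gata1 stand far to the right in the erythroid gate at 7.98 and 5.76, and Gata2, Zfpm1 and Tal1 are lower in the myeloid and lymphoid gates and higher in the megakaryocyte gate.

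Away from these branches, Gata2 and most of its partners were lower. Gata2 stood at 17.4, 19.6 and 36.4 CPM in the myeloid gate of knockout-labelled libraries 1 to 3, and at 21.3, 30.2, 32.3 and 36.0 in wild-type-labelled libraries 1 to 4. In the stem gate it stood at 106, 90.4 and 124, and at 76.6, 68.7, 71.7 and 89.5, so the 2 gates did not overlap. Myeloid against stem gate sums called 8963 of 13373 genes (67%; 34.5% lower) and 6 factors, all lower: Zfpm1 (-1.69), Gata2 (-1.64), Gfi1b (-1.30), Tal1 (-1.20), Nfe2 (-0.57) and Fli1 (-0.33). Lyl1 (0.02) was not called, nor was Runx1 (-0.04), which was called at -0.22 with gates set on thinned cells (adjusted p = 0.0102). Gata1 (-0.83, adjusted p = 0.127) was not called either, but was with 1 more marker per gate (-1.34, adjusted p = 0.00298) and without wild-type-labelled library 4 (-1.24, adjusted p = 0.040). Klf1 had too few counts for the test.

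In the lymphoid gate 3857 of 13373 genes (28.8%; 14.4% lower) were called against the stem gate. The 7 factors called were all lower: Gata2 (-1.54), Gata1 (-1.40), Zfpm1 (-1.13), Tal1 (-0.95), Nfe2 (-0.63), Gfi1b (-0.48) and Fli1 (-0.31). Runx1 (0.09) and Lyl1 (-0.01) were again not called, and Klf1 was not tested. The Gata1 call (adjusted p = 0.0364) was lost without knockout-labelled library 3 or wild-type-labelled library 1 or 3, and that of Gfi1b (adjusted p = 0.0479) without knockout-labelled library 3 or wild-type-labelled library 2 or 4 and with gates set on thinned cells.

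The basophil-mast gate, with Gata1 and Gata2 both known as factors of this lineage, had 62 and 40 cells in the list B libraries. Gata2 stood at 185 and 173 CPM there, higher than in the stem gate of either library, and Gata1 at 51.9 and 5.24 (37 and 2 UMIs). Against the stem gate 559 of 13535 genes (4.13%) were called with edgeR, and Runx1 (0.50, SE 0.12, adjusted p = 0.0129) was the single member among them. Gata1 (3.43, adjusted p = 0.101) and Gata2 (0.74, adjusted p = 0.213) were not called. Both were called with 1 more marker, with gates on thinned cells and without the cells of highest UMIs. Gata1 then stood at 3.42 to 3.63 and Gata2 at 0.73 to 1.66. Under these 3 settings Runx1 kept its call (0.52 to 0.95) and Lyl1 was called lower (-0.69 to -0.37). Klf1 was called higher under 1 of them, at differences of 2.04 to 3.57 over the 3. Tal1 was also called under 1, but its differences ran from -0.75 to 0.25 and so changed direction. More genes than 559 were called with gates on thinned cells and without the cells of highest UMIs, with counts given below.

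Within the gates, Gata2 of the stem gate was the factor nearest to separating the labels. All 3 knockout-labelled libraries (90.4 to 124 CPM) were above all 4 wild-type-labelled ones (68.7 to 89.5), with a gap from 89.5 to 90.4, and Gata2 was the 1 factor whose groups did not overlap, against 1.59% of the genes tested. The difference was 0.46 (SE 0.13, unadjusted p = 0.00398, adjusted p = 0.424 with edgeR), and the test called 8 of 12976 genes (0.0617%) and none of the 9 factors tested. Gata1 differed in the same gate by 1.14 (SE 0.53), also not called. The differences of both genes kept their direction in 15 of 15 alternatives, which reuse the same libraries. The Gata1 sums of this gate rest on 17, 3 and 85 UMIs in knockout-labelled libraries 1 to 3. In wild-type-labelled libraries 1 to 4 they rest on 14, 3, 5 and 39.

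No factor was called by label in the other gates. The myeloid gate had 50 of 12308 genes called (0.406%), the lymphoid gate 30 of 12209 (0.246%) and the megakaryocyte gate 13 of 9387 (0.138%). In none of these 3 did the groups of a factor separate, against 2.53%, 2.6% and 1.73% of genes. In the megakaryocyte gate Gata1 differed by 0.63 (SE 0.30, adjusted p = 0.913), where the wild-type-labelled libraries alone spanned 6.61 to 30.7 CPM.

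Pairs of factors were counted in the same cells after thinning to 3000 UMIs, and the number of cells with both was set beside the number expected if the 2 were independent within a library. In knockout-labelled library 3, 78 cells held both Gata1 and Gata2 against 43.7 expected, a ratio of 1.79, and in wild-type-labelled library 4, 47 against 25.3, a ratio of 1.86. Gata1 and Klf1 met in 17 cells against 1.59 expected and in 23 against 1.83. Gata1 and Gfi1b met in 43 against 14.9 and in 27 against 9.12. All 3 pairs were found together more often than independence gives in both libraries. The expected number was under 5 for Gata1 and Klf1 in every library and for the other pairs in the 5 list A libraries, so no ratio is given there. For Gata1 and Zfpm1, factor and cofactor, the ratios were 2.28 and 2.00. Their median of 2.14 became 3.21 in unthinned cells and 0.475 at 1000 UMIs per cell. The minimum of 5 expected cells was applied at 3000 UMIs only. Fewer cells are expected at 1000 UMIs, so the value at that depth gives no direction.

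Seen from the Gata1-positive cells, 186 in knockout-labelled library 3 and 147 in wild-type-labelled library 4, Gata2 was found in 41.9% and 32.0% against 23.0% and 16.9% of Gata1-negative cells. Gfi1b was found in 23.1% and 18.4% against 7.60% and 5.99%, and Klf1 in 9.14% and 15.7% against 0.62% and 0.99%. Lyl1 went the other way, at 40.3% and 40.8% against 53.5% and 48.8%. These shares are descriptions of 2 libraries. The ratio of Gata1 and Lyl1 moved with depth, from a median of 0.799 to 0.991 in unthinned cells. Within the megakaryocyte gate the ratio for Gata1 and Gata2 was 1.10 and 1.51, and that for Gata1 and Gfi1b was 1.55 in the 1 library with enough expected cells, knockout-labelled library 3. Within the stem gate the ratio for Gata1 and Gata2 was 0.872, in the 1 library with enough expected cells there.

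Gata2 and Zfpm1 could be followed in all 7 libraries, where their ratio ran from 1.18 to 2.18 with a median of 1.39. Gata2 and Tal1 gave 1.08 to 1.55 (median 1.32), and Nfe2 and Gfi1b 1.13 to 1.70 (median 1.34). All 3 pairs were above 1 in 7 of 7 libraries. Within the stem gate the ratio of Gata2 and Tal1 had a median of 0.998, with 3 libraries above and 4 below 1, and that of Gata2 and Zfpm1 a median of 1.13 (1.00 to 1.26). For Nfe2 and Gfi1b the median was 1.15 over 3 libraries there. In the megakaryocyte gate the medians were 1.29 for Gata2 and Tal1 and 0.988 for Gata2 and Zfpm1, over 3 libraries each, and 1.10 for Nfe2 and Gfi1b over 2. Differences between these ratios were not tested.

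**Figure D4:**
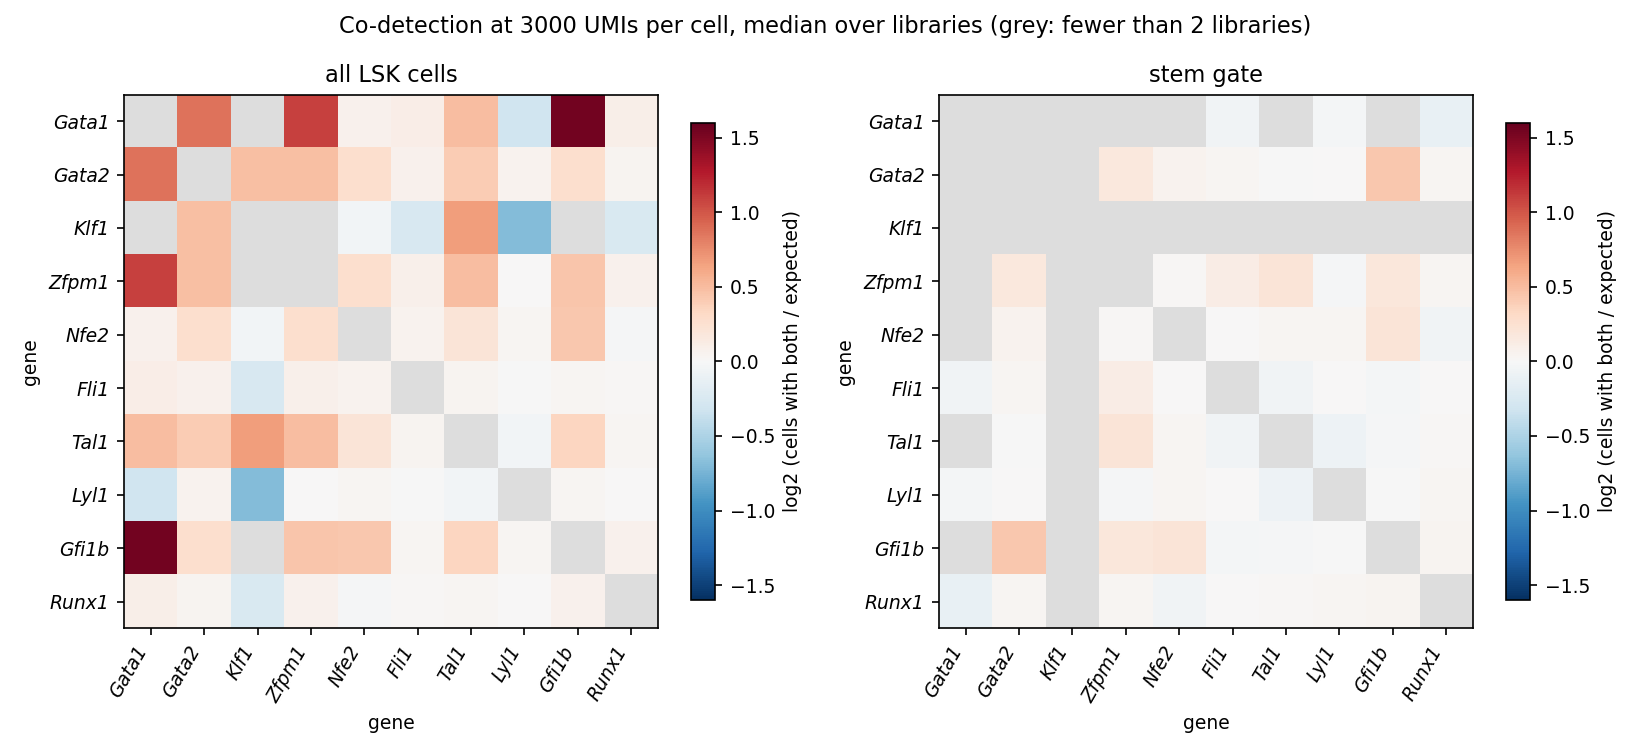
Colour gives the log2 ratio of observed to expected cells with both factors, as the median over libraries at 3000 UMIs per cell, for each pair of the 10 factors in all LSK cells (left) and in the stem gate (right); grey marks pairs with fewer than 2 usable libraries. In all LSK cells Gata1 is red with Gfi1b, Zfpm1 and Gata2, at median ratios of 2.92, 2.14 and 1.82 before the log, and blue with Lyl1 at 0.799.

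Genes whose pattern over cells was most like that of a factor were taken by the mean over 7 libraries of the within-library Pearson r of log counts, among 13047 genes. These values are descriptions, since cells of a library share their depth and state. For Gata1 the first 3 were Mfsd2b (mean r 0.27, from 0.12 to 0.49 over libraries), Apoe (0.20) and Cpa3 (0.15). For Klf1 they were Car1 (0.29, from -0.01 to 0.74), an erythroid carbonic anhydrase and itself a gate marker, Ces2g (0.24) and Mfsd2b (0.19). Gata2, Zfpm1 and Tal1 had the same 3 genes, Csgalnact1, Prkg1 and Angpt1, with r of 0.26 to 0.29 for Gata2 and 0.19 to 0.20 for the other two. Among those of Fli1 were Zbtb20 (0.17) and Angpt1 (0.16). Nfe2 had Ctla2a (0.16), Car2 (0.15) and Ifitm1 (0.15), and Gfi1b had Apoe (0.12), Car2 (0.10) and Sdsl (0.10). Runx1 had Aff3 (0.28), Etv6 (0.24) and Maml3 (0.23), and Lyl1 had Rpl6, Eef1a1 and Rpl3, all of the translation machinery, at 0.14 to 0.15. The list A means exceeded the list B means for the genes of Lyl1 (0.17 to 0.19 against 0.04 to 0.09). The same held for Runx1 (0.27 to 0.34 against 0.14 to 0.15) and Zfpm1 (0.23 against 0.10 to 0.13). Fli1 gave 0.17 to 0.20 against 0.10 to 0.15 for the genes named. List B was higher for Klf1 (0.40 to 0.59 against 0.10 to 0.17) and Gfi1b (0.14 to 0.19 against 0.08 to 0.10).

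The partners of these factors were followed in lists, against 1.07% of all genes called by label. Of 22 complex partners (LMO2, LDB1, E proteins, the CBFA2T3 and CoREST repressors and others), none was called by label in the LSK sums, with a median difference of -0.15 against 0.01 for all genes. Of 7 opposing factors of the myeloid and lymphoid lineages 1 was called, Irf8, higher by 1.14 (adjusted p = 0.0412 with edgeR) and also a marker of the myeloid gate. Of 10 related ETS and stem factors 1 was called, Ets1, at -0.93 (adjusted p = 0.0297). None was called among 14 erythroid, 8 megakaryocyte and 5 mast GATA target genes, whose medians were -0.27, 0.32 and 0.45.

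Between gates, list members that served as gate markers were left out. In the erythroid gate, where 23.6% of all genes were called higher and 27% lower in list B, 7 of 9 erythroid GATA targets were higher than in the stem gate, among them Tspan33 (4.28), Alas2 (the first enzyme of heme synthesis in red cells, 3.46), Urod (another heme enzyme, 1.96), Tfr2 (1.40) and Car2 (1.15), and 1 was lower, Bcl2l1. Their median was 1.68 against -0.17 for all genes. Of the 22 complex partners 8 were higher, including Tcf3 (1.30) and Ldb1 (1.19), and 7 lower, including Lmo2 (-0.72) and Cbfa2t3 (-0.39). Spi1 (PU.1, the myeloid factor known to oppose GATA1) gave -2.39, while Bcl11a (0.45) and Ikzf1 (0.42) were higher. Of 9 ETS and stem factors 6 were lower, among them Gata3 (-2.42), Runx2 (-2.32), Erg (-1.97) and Etv6 (-1.46), and Myb (0.43) and Gabpa were higher.

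In the megakaryocyte gate, over 7 libraries and with 7.46% of all genes called, Vwf (1.42), which encodes von Willebrand factor, and Rab27b (0.91) were higher, and none of 9 erythroid targets was called. In list B alone, the libraries of the erythroid contrast, 7.91% of genes were called, and 2 of the 9 erythroid targets were higher, Alas2 (3.24) and Bcl2l1 (0.53). Over the 7 libraries Spi1 (-0.36), Ikzf1 (-0.38) and Gfi1 (-0.88) were lower, as were Runx2 (-0.46) and Ets1 (-0.66), and Runx3 (0.37) was higher. In the myeloid gate, where 67% of all genes were called and 34.5% were lower, Spi1 (0.75), Cebpa (1.73), Cebpb and Gfi1 were higher, 6 of 8 erythroid targets were lower, Urod was higher, and Vwf and Rab27b were lower. Of the 22 complex partners 11 were lower there, Lmo2 (-0.80) and Ldb1 (-0.41) among them, and 4 were higher.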

How the data were processed

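Single-cell 3′ tag libraries of sorted LSK cells were deposited as UMI counts per gene and cell barcode for 3 knockout-labelled and 4 wild-type-labelled libraries. The authors made these counts with Cell Ranger 7.0.0 on mm10, and Seurat 4.4.0 is also named, per the submitters' processing notes. Other counting settings are not given in the sources used here. Of the deposited barcodes, 32.4% to 49.9% passed the filters below in list A, and 98.3% and 96.2% in list B.

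From the deposited counts, cells with at least 1000 UMIs, at least 500 genes and at most 10% mitochondrial UMIs were kept, and no doublet caller was run. Counts were summed per library and marker gate, with at least 20 cells per library and gate, or 10 for the megakaryocyte gate. The sums were tested with edgeR 4.0.16 (R 4.3.3; TMM, low-count filter, robust quasi-likelihood, Benjamini-Hochberg adjustment, threshold 0.05), with the barcode list as covariate for labels and the library as block for gates. DESeq2 1.42.0 was an alternative. The erythroid and basophil-mast gates and the 10-cell fit were added after seeing the data. Detection and co-detection used cells thinned to 3000 UMIs, and a co-detection ratio needed 5 expected cells at that depth. Exact binomial intervals are at 95%, and CPM are shares of the summed counts, so precision follows the UMIs behind a value. On simulated counts the label test called 98.5% of 200 genes changed by 2 log2 units, with 4.37% of calls false, and the gate test 93.5% with 3.11% false. These counts had the same dispersion for every gene, all libraries, and equal depth in both gates of a library. They do not show how the tests do for smaller differences, for small gates or for the fits on list B alone.

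The 10 factors, all list genes past the threshold and, for each factor, the 3 most alike genes with UMIs in at least 0.5% of cells of every library are named. Some of these genes are not reported here. The members, lists and gates were chosen with earlier results of these data known. Gene positions are from GENCODE M21, in which 32158 of the 32285 gene IDs were found.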

Additional observations from a re-analysis of the deposited data

Results flagged for a closer look

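Among the 4 wild-type-labelled libraries, library 4 stood apart from the other 3 in 7 of 40 groups of values examined, where chance gives about 1 in 20. It is the only wild-type-labelled library of barcode list B. Gata1 over all LSK cells stood at 9.63 CPM there and at 1.5 to 2.29 in the other 3. Lyl1 stood at 217 over all LSK cells (84.6 to 97.8 in the others), 240 in the stem gate (79.7 to 104), 196 in the myeloid gate (79.6 to 90.6) and 214 in the lymphoid gate (84.6 to 98.7). Zfpm1 in the stem gate was the low one, at 13.3 against 61.4 to 67.7. Klf1 in the myeloid gate stood at 0.431 against 0 in the others, where few UMIs were counted.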

How the results depend on the processing

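Counts of genes called by label varied most. Over LSK cells (162 genes) edgeR called 0 without the barcode list term, 547 without the low-count filter and 362 with list A alone, DESeq2 called 872, and leaving out 1 library at a time gave 16 to 363. In the stem gate (8 genes) these settings gave 0 without the list term, 147 without the filter, 50 with DESeq2 and 19 at a mitochondrial share of at most 5%, and 2 to 31 with 1 library left out. The myeloid gate (50) gave 0, 200 and 90 with the first 3 of these, 112 without the cells above the 95th percentile of UMIs, and 16 to 87 with 1 library left out. The lymphoid gate (30) gave 0, 170 and 71. The megakaryocyte gate (13) gave 0, 47 and 1, with 4 for list A alone, 6 without the cells of highest UMIs and 0 to 19 with 1 library left out. No member was called by label in these settings over LSK cells except Gfi1b, as reported. Between gates, megakaryocyte against stem (1019) gave 169 to 1054 with 1 library left out. Without the cells of highest UMIs, erythroid against stem (6848) gave 1385, erythroid against megakaryocyte (5446) 424 and basophil-mast against stem (559) 898, the last also 1191 with gates set on thinned cells; these list B fits hold 2 libraries, so none could be left out.

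The labels do not tie libraries by number, and the numbers were not taken as pairs: the deviations of same-numbered libraries from their group means correlated at 0.67, 0.87 and -0.51 over 10439 genes. The first 2 pairs lie within list A and the third spans both lists, so number and list cannot be told apart in these values. With the replicate number as a block, without the list term and without wild-type-labelled library 4, which has no partner, 1 gene was called over LSK cells, 4 in the stem gate, 0 in the myeloid gate, 24 in the lymphoid gate and 10 in the megakaryocyte gate. In this fit of 6 libraries, the differences of Gata2 (0.24), Klf1 (0.70), Nfe2 (0.23) and Runx1 (-0.24) turned, none of them called.

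Other differences that were not called also turned. Over LSK cells these were Gata2 (0.18), Nfe2 (0.11) and Runx1 (-0.058) without the list term, Gata1 (-0.051), Lyl1 (-0.030) and Runx1 (-0.091) in list A alone, and Gata2 (0.026) and Klf1 (0.36) without the cells of highest UMIs. With 1 library left out, the label difference ran from -0.12 to 0.045 for Fli1, -0.027 to 0.36 for Gata1, -0.30 to 0.064 for Gata2, -0.019 to 0.16 for Lyl1, -0.20 to 0.033 for Nfe2, -0.14 to 0.21 for Runx1 and -0.23 to 0.0040 for Tal1, and that of Gata1 in the megakaryocyte gate from -0.13 to 0.80. Against the stem gate, such ranges were -0.046 to 0.11 for Lyl1 and -0.044 to 0.049 for Runx1 in the megakaryocyte gate, -0.056 to 0.024 for Lyl1 in the lymphoid gate, and -0.035 to 0.067 for Lyl1 and -0.10 to 0.011 for Runx1 in the myeloid gate. Lyl1 in the myeloid gate was -0.016 with 1 more marker and -0.028 with gates on thinned cells. Without the cells of highest UMIs, Gata2 was 0.73 in the erythroid against the stem gate and 0.18 against the megakaryocyte gate, where Zfpm1 was -0.22, or -0.087 with gates on thinned cells.

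Co-detection ratios (median over libraries) depended on depth. Unthinned, Gata1 with Gata2 was 1.72, with Gfi1b 2.79, with Zfpm1 3.21 and with Lyl1 0.991, Klf1 with Fli1 0.989 and with Lyl1 0.958, and Nfe2 with Gfi1b 1.12. At 1000 UMIs, Gata1 with Gata2 was 2.00, with Zfpm1 0.475 and with Lyl1 0.614, and Klf1 with Lyl1 0.958. Without the cells of highest UMIs, Gata1 with Gata2 was 2.01, with Zfpm1 1.71, and Klf1 with Fli1 1.05. Median detection unthinned was 1.54% for Gata1, 0.768% for Klf1, 9.49% for Gfi1b and 32.7% for Gata2, and 6.03% for Gata2 at 1000 UMIs. The cause of these changes was not tested. Gata1 and Klf1 rest on few UMIs outside list B.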
